A study of Homo sapiens with 20 samples.

Results

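At day 4 of Activin A treatment, H1 cells of the clone labelled DIGIT KO1 were compared with unedited H1 cells (WT). H1 is an established human embryonic stem cell line, and DIGIT is a long noncoding RNA transcribed near GSC, a homeobox gene. The 4 libraries were chosen by their labels, 2 of KO1 and 2 of WT, out of 12 RNA-seq libraries and 20 samples in the series. WT cells carried no edit, KO1 cells carried the DIGIT knockout, and all had spent 4 days in RPMI medium supplemented with B27 and with Activin A, a TGF-beta family ligand, at 50 ng/ml. For comparison, the second clone, DIGIT KO2, was taken from the same day 4 culture condition, and WT and KO1 at day 0 came from mTeSR1, a medium that keeps these cells undifferentiated. KO1 is 1 clone, so what the knockout did and what is peculiar to that clone cannot be told apart. DIGIT itself was not among the counted features, so the knockout is taken from the labels. Nothing in the labels says that the 2 libraries of a group are separate cultures, and the p-values then measure only the spread between these libraries, which may be technical. In such bulk RNA, fewer cells of a type and less RNA per cell cannot be told apart.

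Counts assigned to features came to 13117737 and 15411604 in WT and to 12374436 and 15351844 in KO1. The libraries of a pair differed by a chi-square per feature of 3.52 in WT and 2.11 in KO1 at day 4. The KO1 day 0 pair stood apart at 22.05, against 1.91 to 3.94 in the other 5 groups, and counts of calls that involve day 0 are given also with each of these 2 libraries left out. The defining genes of endoderm were present in both groups at day 4. SOX17, an endoderm transcription factor, measured 147 and 129 CPM in WT and 103 and 110.1 CPM in KO1, where CPM are counts scaled to a common library total after TMM normalization. CER1, a secreted Nodal and BMP antagonist, measured 4188 and 3875 CPM in WT and 4536 and 4445 CPM in KO1. POU5F1, the pluripotency factor OCT4, was still at 378 and 389 CPM in WT and 385 and 398 CPM in KO1.

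Cells sense sterol through the SREBP pathway. When membrane sterol is low, SCAP escorts the SREBP precursors to the Golgi, where the proteases MBTPS1 and MBTPS2 release the transcription factor, while INSIG proteins hold the complex back when sterol is plentiful. Released SREBP2 drives the mevalonate pathway and sterol uptake, SREBP1 drives fatty acid synthesis, and the LXR receptors act in the opposite situation, inducing export genes such as ABCA1. In the gastrula, Nodal and its stand-in Activin act through SMAD2 and SMAD3 to specify the primitive streak, mesoderm and endoderm, and they induce their own inhibitors, LEFTY1 and LEFTY2.

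The promoters of sterol genes are shown because the results turn on these genes. SREBP sites work together with CCAAT boxes, which bind NF-Y. The letters CCAAT were searched on either strand in the 250 bases before the start of each RefSeq gene (GRCh38.p14). Where a gene had several starts, the start with most matches was taken. CCAAT occurred in 13 of the 15 sterol synthesis genes that had an entry, against 37.0% of all 27305 genes. It occurred in 6 of 13 genes of SREBP regulation and sterol uptake and in 6 of 12 genes of fatty acid synthesis. A form of the sterol regulatory element was searched as TCACNCCAC on both strands. This form was found in SREBF2, in no other gene of the 3 lists with an entry, and in 1.09% of all genes. The searched motifs did not overlap each other in the stretches below, which run 5′ to 3′ on the strand of the gene with each match in capitals, ATTGG being CCAAT on the other strand. The stretches are HMGCS1 at chr5:43313488-43313587 (minus strand), INSIG1 at chr7:155297688-155297732 (plus strand), MVD at chr16:88663152-88663270 (minus strand) and SREBF2 at chr22:41832952-41833023 (plus strand).
HMGCS1: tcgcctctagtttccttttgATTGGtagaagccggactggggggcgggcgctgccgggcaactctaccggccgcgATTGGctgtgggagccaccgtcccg
INSIG1: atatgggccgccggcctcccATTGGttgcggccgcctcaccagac
MVD: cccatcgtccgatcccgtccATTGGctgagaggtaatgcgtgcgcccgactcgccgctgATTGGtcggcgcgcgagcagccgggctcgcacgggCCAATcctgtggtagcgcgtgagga
SREBF2: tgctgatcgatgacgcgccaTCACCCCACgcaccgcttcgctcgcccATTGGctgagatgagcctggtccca
HMGCS1 held 2 matches, MVD held 3, INSIG1 held 1, and SREBF2 held 1 of each motif. A match describes letters and not binding.

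Of the 16792 features tested, 1755 were higher in KO1 than in WT at day 4 (10.5% of those tested) and 1582 were lower (9.42%), 19.9% in all, at an adjusted p below 0.05 in edgeR's quasi-likelihood test. Among them, 386 were higher and 284 lower by at least 1 on the log2 scale. The median log2 fold change over all features was 0.01. The counts depended on the libraries in the fit. Without WT day 4 replicate 1 or 2 they were 863 and 909 higher and 795 and 903 lower. Without KO1 day 4 replicate 1 or 2 they were 758 and 1026 higher and 595 and 773 lower. Without KO1 day 0 replicate 1 or 2 they were 2675 and 2671 higher and 2553 and 2557 lower. Genes named below kept their call in each alternative setting run for them (up to 20) unless another value is given with them.

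**Figure D1:**
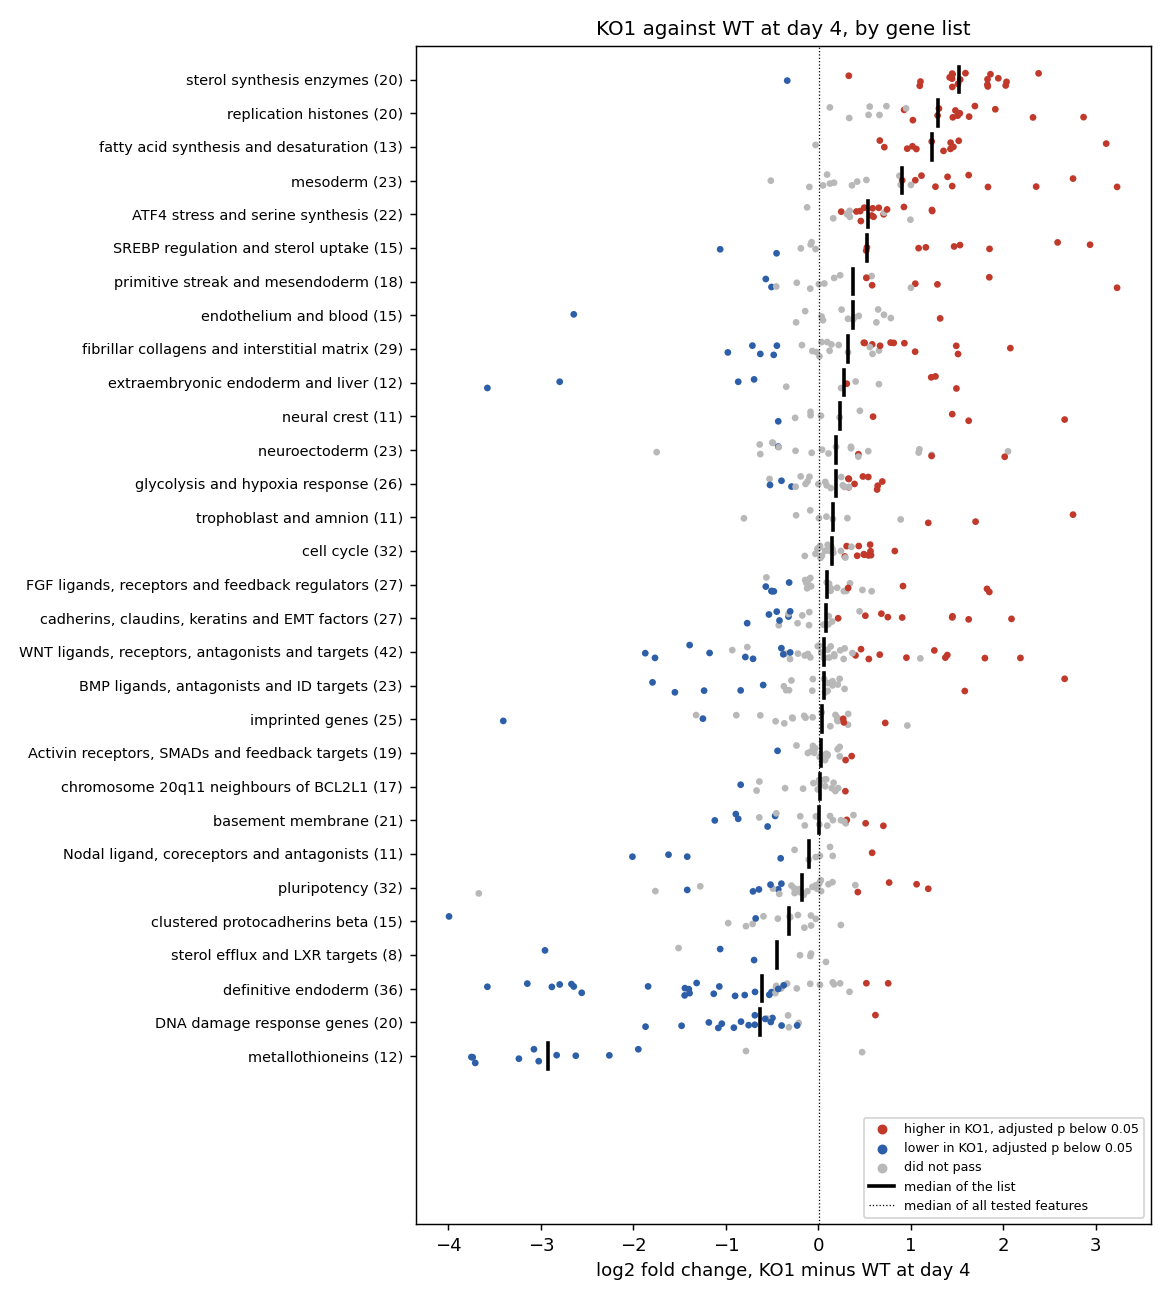
Log2 fold change of KO1 against WT at day 4 (horizontal axis) for each tested member of the gene lists, with 1 dot a gene, a black bar at the list's median and a dotted line at the median of all features. Sterol synthesis (median 1.52) and fatty acid synthesis (1.23) lie to the right, and metallothioneins (-2.93), DNA damage response genes (-0.63) and definitive endoderm (-0.61) to the left.

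Nearly the whole of cholesterol synthesis was more abundant in KO1. Of 20 enzymes, 19 rose and 1 fell, with a median log2 fold change of 1.52, and their summed level was 4321 to 4575 CPM in WT and 13158 to 14141 CPM in KO1. HMGCS1, the synthase that makes HMG-CoA, measured 504 and 560.4 CPM in WT and 2830.4 and 2720.0 CPM in KO1. Both KO1 libraries stood far above both WT libraries (log2 2.38, SE 0.12, adjusted p = 6.51e-09). ACAT2, which starts the pathway from acetyl-CoA, measured 268 and 286 CPM in WT and 1019.5 and 948 CPM in KO1, with no overlap (log2 1.83, SE 0.08, adjusted p = 2.81e-09).

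Later steps moved in the same direction. In the mevalonate arm MVK (log2 1.83), MVD (2.03), IDI1 (1.95) and FDPS (1.45) rose. MVD, the decarboxylase whose promoter is shown above, measured 69.7 and 75.3 CPM in WT and 303 and 288 CPM in KO1. Its 4 libraries split cleanly by genotype (log2 2.03, SE 0.11, adjusted p = 1.56e-08). FDFT1 and SQLE, which form and epoxidise squalene, rose by 1.45 and 1.51, and LSS, which closes the sterol ring, by 1.53. CYP51A1, the lanosterol demethylase, measured 86.7 and 93.3 CPM in WT and 386 and 353 CPM in KO1, and the KO1 libraries were the high ones (log2 2.04, SE 0.12, adjusted p = 3.53e-08). MSMO1, NSDHL, HSD17B7, EBP, SC5DL and DHCR7, which act in the last steps, rose by 1.10 to 1.83.

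A pair of enzymes departed from the rest. TM7SF2, 1 of the sterol reductases acting on the sterol ring, measured 46.99 and 54.8 CPM in WT and 61.7 and 66.3 CPM in KO1. Its KO1 libraries were slightly higher (log2 0.33, SE 0.10, adjusted p = 0.0259), and the call was lost without WT day 4 replicate 1 (adjusted p = 0.274) and without either KO1 day 4 library. PMVK, phosphomevalonate kinase, measured 20.2 and 19.1 CPM in WT and 15.4 and 15.7 CPM in KO1. It was the member that fell (log2 -0.34, SE 0.11, adjusted p = 0.0393), and that call was lost without any of the 4 libraries compared, without KO2 day 4 replicate 2, without the low-count filter and with DESeq2, with adjusted p-values up to 0.187.

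Genes of SREBP regulation and sterol uptake changed in both directions, more of them upward. Of 15 genes of this list, 9 rose, 2 fell and 4 did not pass (median 0.53). INSIG1, which retains the SREBP complex and is itself an SREBP target, measured 31.6 and 36.2 CPM in WT and 281 and 240.1 CPM in KO1. Both KO1 values were above both WT values by a wide margin (log2 2.94, SE 0.17, adjusted p = 2.43e-08). STARD4, a sterol carrier, measured 34.3 and 35.5 CPM in WT and 132 and 120.4 CPM in KO1, without overlap (log2 1.85, SE 0.13, adjusted p = 2.39e-07). NPC1, which exports cholesterol from lysosomes, measured 77.3 and 81.3 CPM in WT and 179.9 and 157 CPM in KO1, also without overlap (log2 1.08, SE 0.09, adjusted p = 1.27e-06).

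TMEM97 rose by 1.47 and LPIN1, a phosphatidate phosphatase, by 1.16. SREBF2, which encodes SREBP2, measured 335 and 329.6 CPM in WT and 483 and 473 CPM in KO1, higher in both KO1 libraries (log2 0.53, SE 0.08, adjusted p = 0.00032). SREBF1, which encodes SREBP1, measured 75.4 and 82.7 CPM in WT and 75.3 and 79.5 CPM in KO1, with overlapping groups (log2 -0.03, SE 0.09, adjusted p = 0.87). The proteases MBTPS1 and MBTPS2 differed by -0.07 and -0.08 and did not pass. SCAP, the escort protein, measured 119 and 114 CPM in WT and 82.2 and 88.1 CPM in KO1. Both KO1 libraries were lower (log2 -0.45, SE 0.09, adjusted p = 0.00318), and without KO1 day 4 replicate 1 the adjusted p was 0.0564. INSIG2 rose by 0.52 (adjusted p = 0.0328), a call lost without any of the 4 libraries compared or KO2 day 4 replicate 1 and with DESeq2, with adjusted p-values up to 0.235.

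Fatty acid synthesis rose with sterol synthesis. Of 13 genes, 12 rose in the main fit and in each alternative, and SREBF1 did not pass (median 1.23). ACSS2, which makes acetyl-CoA from acetate, measured 20.7 and 25.6 CPM in WT and 208 and 194 CPM in KO1. Its KO1 libraries were the high pair, and the fold was the largest of these lipid genes (log2 3.11, SE 0.19, adjusted p = 5.39e-08). SCD, a stearoyl-CoA desaturase, measured 1404 and 1638 CPM in WT and 4482 and 4229 CPM in KO1, without overlap (log2 1.52, SE 0.08, adjusted p = 1.04e-08). FASN, fatty acid synthase, measured 797 and 776 CPM in WT and 2185 and 2049 CPM in KO1, again without overlap (log2 1.43, SE 0.09, adjusted p = 3.53e-08). ACLY, which supplies cytosolic acetyl-CoA from citrate, rose by 1.46, ELOVL6, an elongase, by 1.43, and ACACA, acetyl-CoA carboxylase, by 0.96. ACSL4, ME1, FADS1, FADS2, ELOVL5 and ACSL3 rose by 0.66 to 1.35.

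**Figure D2:**
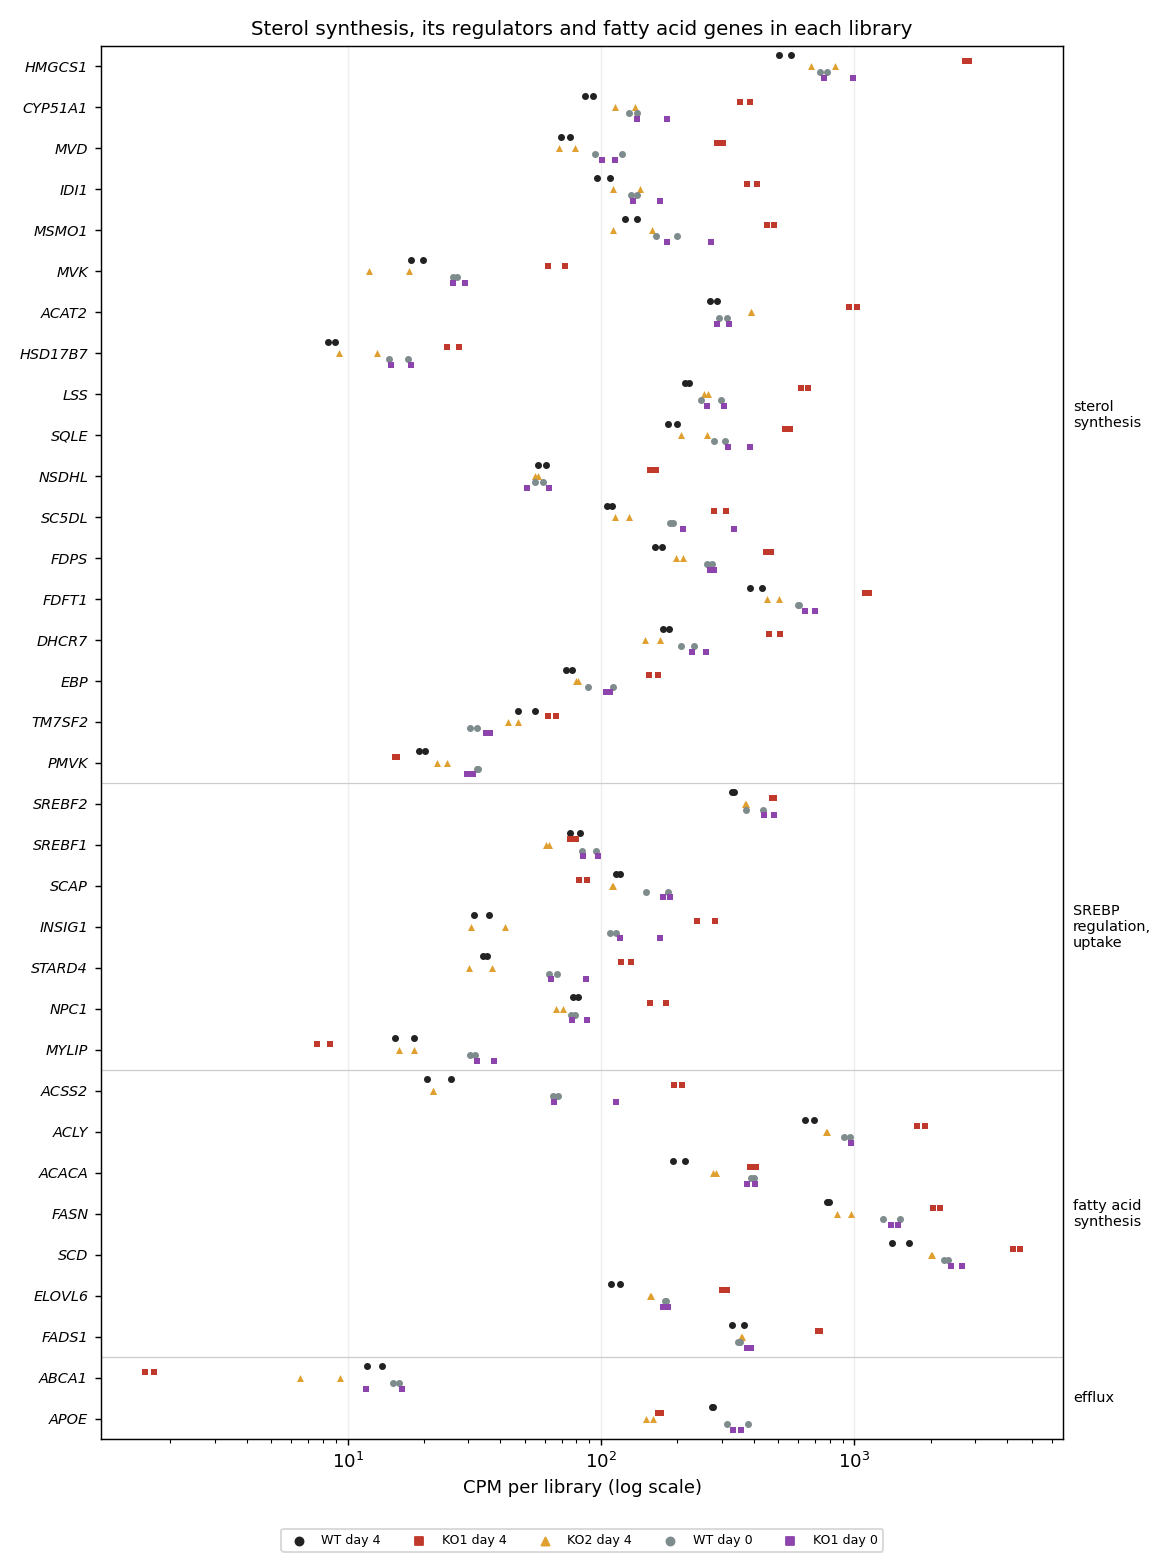
Level of lipid genes in each library (CPM, log axis), with 1 point a library for WT, KO1 and KO2 at day 4 and WT and KO1 at day 0. HMGCS1 stands at 2830.4 and 2720.0 CPM in KO1 at day 4 against 504 and 560.4 in WT, and ABCA1 at 1.73 and 1.58 against 11.9 and 13.7.

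A minority of the genes of sterol efflux and of the LXR receptors fell. ABCA1, the transporter that loads cholesterol onto apolipoproteins, measured 11.9 and 13.7 CPM in WT and 1.73 and 1.58 CPM in KO1. The KO1 pair lay far below the WT pair (log2 -2.96, SE 0.26, adjusted p = 2.14e-06). MYLIP, a ubiquitin ligase induced by LXR, measured 15.4 and 18.3 CPM in WT and 7.59 and 8.53 CPM in KO1, lower in both KO1 libraries (log2 -1.06, SE 0.14, adjusted p = 0.000134). APOE, an apolipoprotein, measured 273 and 278 CPM in WT and 168 and 172 CPM in KO1, also without overlap (log2 -0.69, SE 0.09, adjusted p = 7.22e-05). These 3 of 8 LXR and efflux genes fell, none rose and 5 did not pass (median -0.45). ABCG1, another sterol transporter, was low in both groups, at 0.992 and 1.42 CPM in WT and 0.518 and 0.344 CPM in KO1 (log2 -1.51, adjusted p = 0.0727), and the receptors themselves, NR1H3 and NR1H2, differed by -0.08 and -0.09 and did not pass.

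For most lipid synthesis genes the difference was greater at day 4 than at day 0. The test of the KO1 effect at day 4 minus the KO1 effect at day 0 passed for 838 features upward (4.99%) and 807 downward (4.81%), 9.8% in all. These became 2359 and 2154 without KO1 day 0 replicate 1 and 1369 and 1280 without replicate 2. By that test the effect was greater at day 4 for 18 of 20 sterol synthesis enzymes and 12 of 13 fatty acid genes. The same held for 7 of 15 genes of SREBP regulation, and 2 of those 15 passed downward. That test includes the day 4 libraries, so it adds no separate support to the day 4 calls. The 18 stayed 18 without either KO1 day 0 library, and the 12 stayed 12. The 7 were 8 without either, and the 2 were 4 without KO1 day 0 replicate 1 and 2 without replicate 2. At day 0, HMGCS1 measured 733 and 781 CPM in WT and 759 and 989.7 CPM in KO1. INSIG1 measured 108 and 115 CPM in WT and 119 and 170.2 CPM in KO1. In each gene the first KO1 library lay close to WT and the second lay above both. No sterol synthesis, fatty acid or SREBP regulation gene passed at day 0, where 10 features of all were higher (0.0596%) and 30 lower (0.179%) and 1638 had an unadjusted p below 0.05. Without KO1 day 0 replicate 1, however, 8, 4 and 7 members of those lists were called higher at day 0, and the counts over all features became 1939 higher and 1848 lower. Without replicate 2 none of those genes was called, and over all features 12 were higher and 30 lower. DESeq2 called 21 higher at day 0.

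The second clone fell short of the KO1 levels of lipid synthesis genes. Summed sterol synthesis enzymes stood at 4859 to 5395 CPM in KO2 at day 4, above the 4321 to 4575 CPM of WT. The sum over fatty acid genes was 5743 to 5856 CPM in KO2, against 4612 to 5047 CPM in WT and 11821 to 12408 CPM in KO1. Between KO1 and KO2 at day 4, 2404 features were higher in KO1 (14.3%) and 1810 lower (10.8%). Among sterol synthesis enzymes 19 were higher in KO1 than in KO2 and PMVK was lower, and all 13 fatty acid genes were higher in KO1. HMGCS1 measured 674 and 837 CPM in KO2 and was 1.88 higher in KO1 (SE 0.12, adjusted p = 2.66e-08). INSIG1 measured 30.6 and 41.9 CPM in KO2, a difference of 2.84 (SE 0.17, adjusted p = 1.5e-08). ABCA1 measured 9.31 and 6.49 CPM in KO2, above both KO1 libraries (log2 -2.24, SE 0.28, adjusted p = 3.31e-05) and below both WT libraries. The sum over efflux and LXR genes was 287 to 296 CPM in KO2, about as low as in KO1 (297 to 307 CPM). In WT that sum was 431 to 440 CPM. APOE, with the values given above, made up most of the sum in WT and KO1, so it says little of the other genes. The comparisons of KO1 with WT and with KO2 share the KO1 libraries, so neither adds to the other.

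LEFTY1, LEFTY2 and DACT2, which antagonise Nodal, fell in KO1 while NODAL rose, and the antagonist CER1 did not pass. LEFTY2, which blocks Nodal at its coreceptor, measured 301 and 377 CPM in WT and 73.5 and 94.4 CPM in KO1. Both KO1 libraries lay below both WT libraries (log2 -2.01, SE 0.18, adjusted p = 2.89e-06). LEFTY1, its close paralog, measured 346 and 416 CPM in WT and 125 and 160.1 CPM in KO1, also without overlap (log2 -1.42, SE 0.19, adjusted p = 0.000112). Reads shared by these paralogs may have been divided by the counting, so their separate values are uncertain. NODAL measured 332 and 285 CPM in WT and 468 and 455 CPM in KO1, and the KO1 libraries were the higher pair (log2 0.58, SE 0.11, adjusted p = 0.00132). DACT2, an antagonist in Nodal and WNT signalling, fell by 1.62 on the log2 scale.

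Of 11 tested ligands, coreceptors and antagonists of this pathway, 1 rose, 4 fell and 6 did not pass (median -0.10). FURIN, a convertase that matures Nodal, was the fourth to fall (log2 -0.41, SE 0.09, adjusted p = 0.0069), and its adjusted p rose to 0.0682 without KO1 day 4 replicate 1 and the call was also lost without replicate 2. TDGF1, the coreceptor Cripto, measured 669 and 575 CPM in WT and 523 and 518 CPM in KO1 and did not pass (adjusted p = 0.0807). GDF3, FST and CER1 differed by -0.03, 0.02 and 0.16 and did not pass. Of 19 Activin receptors, SMADs and feedback targets, 2 rose (10.5%), 1 fell (5.26%) and 16 did not pass. Of all features 10.5% were higher and 9.42% lower. None of these 3 calls, SMAD3 and ACVR1B among them, held in every alternative. SMAD2, SMAD4, SMAD7 and FOXH1 differed by -0.24 to 0.23 and did not pass.

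For LEFTY2 and NODAL the KO1 effect differed between the days. LEFTY2 was at 3.49 and 2.54 CPM in WT and 2.14 and 5.65 CPM in KO1 at day 0. Its day difference was -2.46 (SE 0.41, adjusted p = 0.00175), and it was -2.96 and -1.56 without KO1 day 0 replicate 1 and 2. NODAL was at 6.39 and 3.81 CPM in WT and 3.79 and 3.34 CPM in KO1 at day 0, and the day difference was 1.06 (adjusted p = 0.012, or 0.111 without WT day 0 replicate 1). Against KO2, LEFTY2 differed by -0.45 (SE 0.18, adjusted p = 0.0897) and LEFTY1 by 0.12 (SE 0.19, adjusted p = 0.688), neither of which passed, although LEFTY2 did so in some alternatives, at adjusted p-values down to 9.07e-05.

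Genes of definitive endoderm were mostly lower in KO1, but several of its regulators did not pass. Of 36 tested members, 22 fell, 2 rose and 12 did not pass (median -0.61). The count that fell was 15 without WT day 4 replicate 1 and 27 at most. CXCR4, the chemokine receptor used to sort endoderm, measured 164 and 139 CPM in WT and 53.2 and 58.1 CPM in KO1. Its KO1 libraries were the low pair (log2 -1.44, SE 0.13, adjusted p = 2.33e-06). GATA4 measured 72.5 and 63.6 CPM in WT and 32.6 and 29.6 CPM in KO1, likewise without overlap (log2 -1.13, SE 0.11, adjusted p = 5.73e-06). CCKBR, the cholecystokinin B receptor, measured 157 and 132 CPM in WT and 18.99 and 20.1 CPM in KO1, and the groups were far apart (log2 -2.88, SE 0.18, adjusted p = 6.99e-08).

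VWF, von Willebrand factor, measured 66.7 and 59.03 CPM in WT and 8.89 and 11.1 CPM in KO1. The KO1 pair was well below WT (log2 -2.64, SE 0.18, adjusted p = 1.17e-07). The apolipoprotein genes APOA2 and APOA1 measured 1.12 and 0.688 and 0.259 and 0.344 CPM in KO1, below 6.56 and 5.86 and 4.12 and 3.42 CPM in WT, with log2 fold changes of -2.80 and -3.58. TMEM150C (-2.56), SLC40A1 (-1.84), the iron exporter, COLEC12 (-1.45), CXCR7 (-1.40), the long noncoding RNA LINC00261 (-1.32), SHISA2 (-0.90), CYP26A1 (-0.80), which breaks down retinoic acid, and KIT (-0.53) fell too.

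By contrast the transcription factors FOXA2, GATA6, EOMES, HHEX and GSC did not pass. FOXA2 measured 63.4 and 57.7 CPM in WT and 48.8 and 54.1 CPM in KO1, without overlap but short of the threshold (log2 -0.23, SE 0.13, adjusted p = 0.236). GATA6 measured 198 and 174 CPM in WT and 175 and 174 CPM in KO1, with KO1 at or just beside the lower WT library (log2 -0.09, SE 0.11, adjusted p = 0.626). EOMES measured 488 and 361 CPM in WT and 508 and 492 CPM in KO1, both KO1 values being above both WT values (log2 0.24, SE 0.12, adjusted p = 0.204). SOX17, whose values stand above, was lower in both KO1 libraries (log2 -0.37, SE 0.12, adjusted p = 0.0413), and its call was lost without any 1 of the 4 libraries compared or either KO2 day 4 library, with adjusted p-values up to 0.281. HHEX, a foregut regulator, measured 43.02 and 38.8 CPM in WT and 27.6 and 31.5 CPM in KO1, lower in both KO1 libraries but short of the threshold (log2 -0.46, SE 0.19, adjusted p = 0.0975). GSC, the neighbour of DIGIT and a marker of anterior streak, measured 56.4 and 45.6 CPM in WT and 36.7 and 37.6 CPM in KO1. Its KO1 libraries were lower as well and it did not pass (log2 -0.45, SE 0.18, adjusted p = 0.0986). GSC and HHEX passed in 6 alternatives, among them those without the KO1 day 0 libraries, at adjusted p-values down to 0.000838 and 0.000665, and EOMES and FOXA2 in 1 each (0.0396 and 0.0276). Further calls that did not hold in every alternative were those of DIO3, FGF17, HNF4A, OTX2, PRDM1 and ST6GALNAC2, which fell, and LHX1, which rose. For DIO3 and PRDM1 the only such setting left out WT day 4 replicate 1 (adjusted p = 0.0566 and 0.059).

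Most of this list was nonetheless higher in KO1 than in KO2. That held for 29 of 36 genes, and FST, the Activin antagonist follistatin, was lower. SOX17 stood at 17.6 and 15.4 CPM in KO2 (log2 2.69, SE 0.14, adjusted p = 7.23e-09). GATA6 stood at 31.1 and 24.2 CPM in KO2 (log2 2.66, SE 0.12, adjusted p = 3.1e-09). CXCR4 stood at 10.03 and 7.09 CPM in KO2 (log2 2.71, SE 0.16, adjusted p = 1.34e-08). In these 3 genes both KO1 libraries were far above both KO2 libraries. GSC stood at 8.83 and 8.23 CPM in KO2, also below KO1 (log2 2.12, SE 0.21, adjusted p = 4.01e-06). The day difference passed downward for 12 endoderm genes and upward for KITLG, and the 12 became 17 and 10 when KO1 day 0 replicate 1 or 2 was left out and 6 when KO1 day 4 replicate 1 was.

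**Figure D3:**
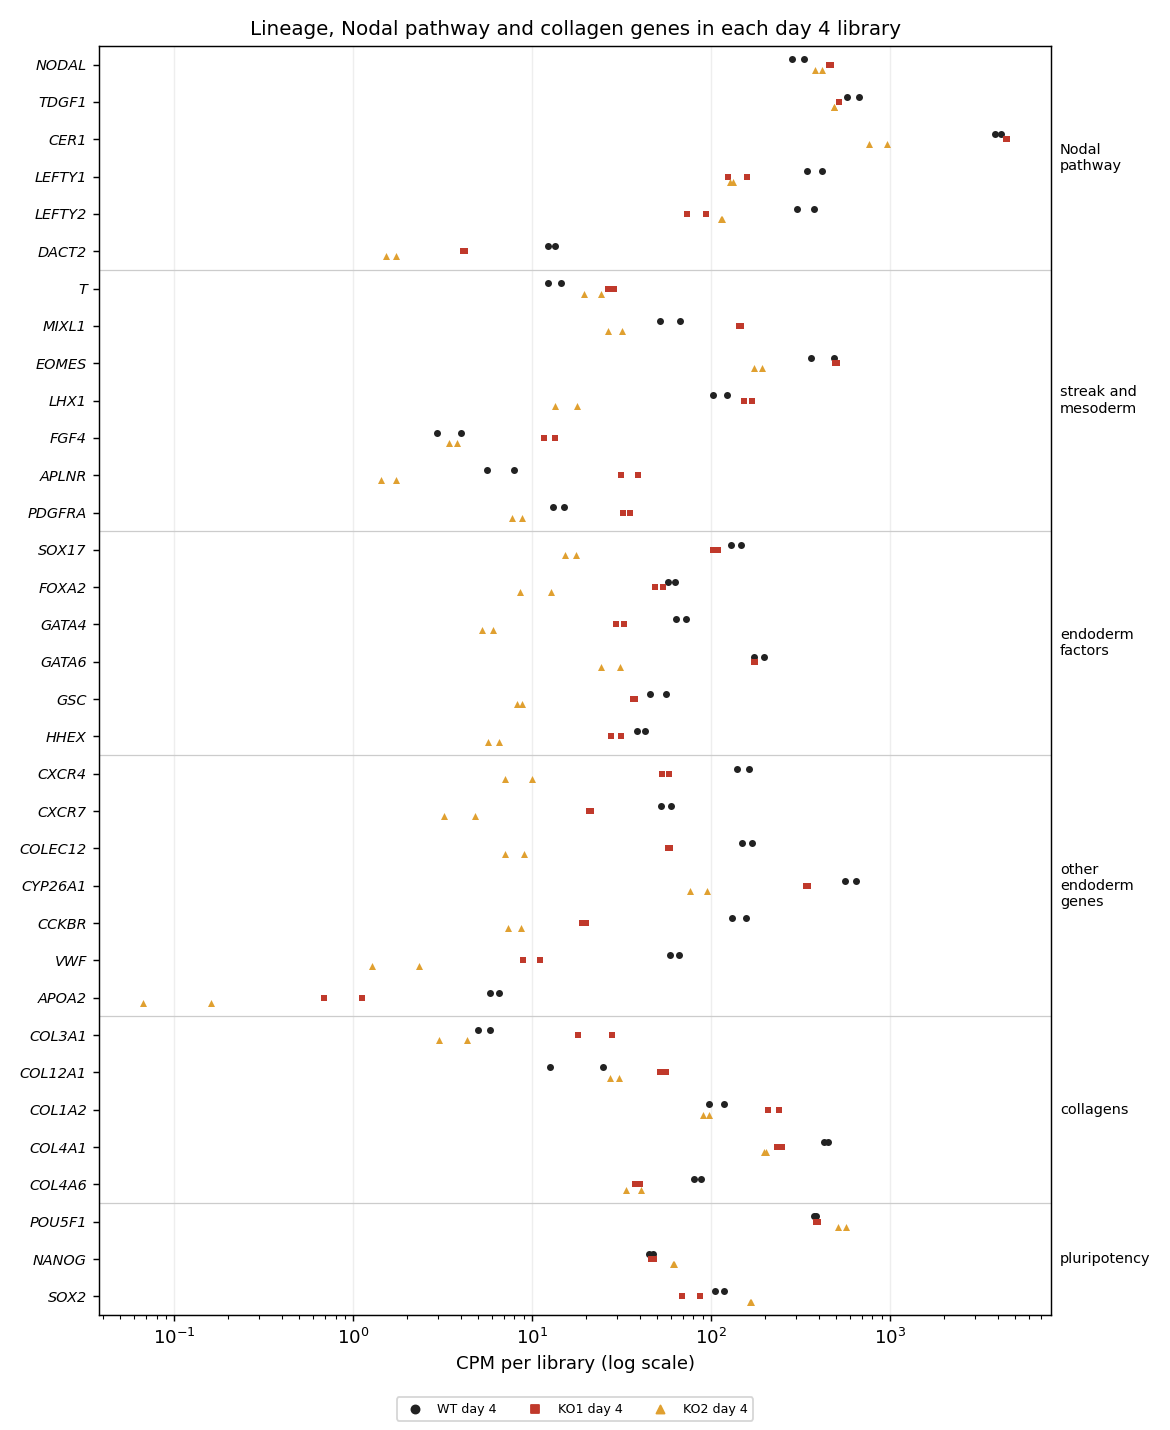
Level of Nodal pathway, streak and mesoderm, endoderm, collagen and pluripotency genes in each day 4 library (CPM, log axis), with 1 point a library for WT, KO1 and KO2. KO1 lies below WT for LEFTY2 (73.5 and 94.4 against 301 and 377), above it for MIXL1 (144 and 147 against 66.98 and 52.3) and far above KO2 for SOX17 (103 and 110.1 against 17.6 and 15.4).

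Some streak and mesoderm genes, MIXL1, T and APLNR among them, were higher in KO1, while most of both lists did not pass. MIXL1, a homeobox gene of the primitive streak, measured 66.98 and 52.3 CPM in WT and 144 and 147 CPM in KO1. Both KO1 libraries were above both WT libraries (log2 1.29, SE 0.12, adjusted p = 3.74e-06). T, the mesoderm factor brachyury, measured 14.6 and 12.3 CPM in WT and 28.9 and 26.6 CPM in KO1, also without overlap (log2 1.05, SE 0.15, adjusted p = 0.000227). FGF4 measured 4.04 and 2.96 CPM in WT and 13.5 and 11.7 CPM in KO1, with KO1 the higher pair (log2 1.85, SE 0.24, adjusted p = 0.0001). Of 18 tested streak genes, 6 rose, 2 fell and 10, EOMES among them, did not pass (median 0.38). LHX1 and MESP2 were the other genes to rise besides NODAL, and both calls were lost in some alternatives. LHX1 lost its call without WT day 4 replicate 2 (adjusted p = 0.151) or KO1 day 4 replicate 2. MESP2 had 2 counts in WT and 19 in KO1, or 10.4 times as many at equal depth (95% counting interval 2.51 to 92.2), and lost its call without WT day 4 replicate 1 (adjusted p = 0.0907) or KO1 day 4 replicate 1. FGF8 and FGF17 fell, and each lost its call without WT day 4 replicate 1 (adjusted p = 0.0937 and 0.0935) and without 1 KO1 day 4 library, replicate 2 for FGF8 and replicate 1 for FGF17.

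In the mesoderm list 11 of 23 tested genes rose, none fell and 12 did not pass (median 0.91). The summed level of all 32 listed genes was 513 to 546 CPM in WT and 670.2 to 697 CPM in KO1. APLNR, the apelin receptor of early mesoderm, measured 5.64 and 7.99 CPM in WT and 39.01 and 31.5 CPM in KO1. The KO1 libraries were the high pair (log2 2.36, SE 0.17, adjusted p = 2.86e-07). PDGFRA, a receptor of paraxial and extraembryonic mesoderm, measured 15.1 and 13.1 CPM in WT and 32.3 and 35.5 CPM in KO1 (log2 1.27, SE 0.15, adjusted p = 3.23e-05), and PDGFRB rose by 1.12. SNAI1, which represses E-cadherin, rose by 0.91 and DLL3, a Notch ligand of the presomitic mesoderm, by 1.40. Defining genes of later mesoderm were low in both groups. TBX6 measured 1.14 and 1.03 CPM in WT and 2.07 and 2.27 CPM in KO1, HAND1 0.153 and 0.129 CPM in WT and 0.949 and 1.03 CPM in KO1 and FOXF1 1.83 and 0.644 CPM in WT and 1.64 and 1.03 CPM in KO1. HAND1, MESP2, PCDH19, SNAI2 and TWIST1 rose but lost the call in 1 or more alternatives, with adjusted p-values up to 0.0907 and in each case without at least 1 of the 4 libraries compared. BMP4 and KDR, which marks mesoderm and its endothelial descendants, differed by 0.09 and 0.05 and did not pass.

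APLNR was also the gene with the greatest excess of KO1 over KO2 by the rule used to name genes, at 1.44 and 1.74 CPM in KO2 (log2 4.45, SE 0.22, adjusted p = 4.76e-09). Of the mesoderm list 16 genes were higher in KO1 than in KO2 and none lower, and of the streak list 12 and none. MIXL1 stood at 32.1 and 26.5 CPM in KO2 (log2 2.31, SE 0.13, adjusted p = 1.3e-08), and T at 19.7 and 24.3 CPM, which did not pass (log2 0.33, adjusted p = 0.114). The day difference passed upward for 6 mesoderm genes, which were 8 and 7 without KO1 day 0 replicate 1 and 2 and 2 without WT day 0 replicate 1, and it did not pass for MIXL1 (log2 -0.26, adjusted p = 0.84) or T (log2 0.13, adjusted p = 0.954). MIXL1 measured 0.0968 and 0.283 CPM in WT and 0.494 and 0.712 CPM in KO1 at day 0 and T 0.194 and 0.212 CPM in WT and 0.439 and 0.356 CPM in KO1. Each of these day 0 levels is below 1 CPM. The day difference without KO1 day 0 replicate 1 and 2 was -0.48 and 0.04 for MIXL1 and 0.26 and -0.03 for T, none of which passed.

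The matrix changed in both directions. COL3A1, a fibrillar collagen, measured 5.87 and 5.03 CPM in WT and 28.05 and 18.1 CPM in KO1. Both KO1 libraries lay above both WT libraries (log2 2.08, SE 0.25, adjusted p = 3.72e-05). COL1A2, COL12A1, COL5A1 and COL11A1 rose by 1.05, 1.51, 0.78 and 0.49, and FBN1, THBS1, TGFBI and LOX, which crosslinks collagen, by 0.67 to 1.49. COL1A1 measured 97.2 and 77.8 CPM in WT and 81.6 and 73.1 CPM in KO1, with overlapping groups (log2 -0.18, adjusted p = 0.29), and FN1 and COL5A2 differed by 0.22 and 0.01. COL6A1 fell by 0.63 on the log2 scale and FBLN2 by 0.98. In all 11 of 29 interstitial matrix genes rose, 5 fell and 13 did not pass (median 0.32), and 9 and 2 of these kept the call in each alternative. The 5 that fell were 3 without WT day 4 replicate 1 or either KO1 day 4 library.

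Of the basement membrane collagens, COL4A1, COL4A2 and COL4A6 fell. COL4A1 measured 449.9 and 429 CPM in WT and 249.5 and 233 CPM in KO1 (log2 -0.87, SE 0.08, adjusted p = 1.86e-06). COL4A2, its partner chain, measured 262 and 260.0 CPM in WT and 141 and 141 CPM in KO1 (log2 -0.89, SE 0.08, adjusted p = 1.74e-06). COL4A6 fell by 1.12 on the log2 scale. For each of these chains the KO1 libraries were about level with each other and below WT. The laminins LAMA1, LAMA5 and LAMC1 differed by -0.20 to 0.28 and did not pass. Of 21 basement membrane genes, 3 rose (14.3%), 5 fell (23.8%) and 13 did not pass (median 0.01). Of all features 10.5% were higher and 9.42% lower. Only the 3 collagen chains kept the call in each alternative, since the others, among them NID2, LAMB1, COL4A5 and AGRN, lost it in 1 or more. The 3 that rose were 0 when WT day 4 replicate 2 was left out, 1 when KO1 day 4 replicate 1 was and 5 without either KO1 day 0 library, and the 5 that fell were 3 without KO1 day 4 replicate 2.

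Adhesion genes and genes of epithelia and mesenchyme changed in both directions. KRT8 and KRT19, keratins of simple epithelia, fell and VIM, CDH11 and ZEB2, genes of mesenchyme, rose, each of them in every alternative. Other members moved the opposite way with calls that did not hold throughout. CDH2, the mesenchymal N-cadherin, fell (log2 -0.32, adjusted p = 0.0101, at most 0.0976 over the alternatives), and the epithelial junction genes CLDN4 (log2 0.51, adjusted p = 0.0321, at most 0.316 over the alternatives) and TJP1 (log2 0.21, adjusted p = 0.0426, at most 0.334 over the alternatives) rose. CDH2 lost its call without WT day 4 replicate 1 or either KO1 day 4 library, CLDN4 in 6 alternatives and TJP1 in 13. KRT8 measured 716 and 647 CPM in WT and 402 and 398 CPM in KO1 (log2 -0.77, SE 0.07, adjusted p = 5.49e-06). KRT19 fell by 0.53 and ESRP2, an epithelial splicing factor, by 0.45 on the log2 scale. VIM, vimentin, measured 785 and 749 CPM in WT and 1345 and 1237 CPM in KO1 (log2 0.75, SE 0.13, adjusted p = 0.000812). CDH11, a mesenchymal cadherin, rose by 1.45 and ZEB2, a repressor of epithelial genes, by 2.09. In VIM both KO1 libraries were the high pair and in KRT8 the low pair. Of 27 genes, 9 rose, 6 fell and 12 did not pass (median 0.09), of which 4 and 3 kept the call in each alternative. The 9 were 5 when WT day 4 replicate 1 was left out and 4 when KO1 day 4 replicate 1 was, and the 6 were 3 without WT day 4 replicate 1 or KO1 day 4 replicate 2.

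Most pluripotency genes did not pass, POU5F1 and NANOG among them, and those that did moved both ways. POU5F1 differed by 0.03 (SE 0.07, adjusted p = 0.831). NANOG measured 47.8 and 45.2 CPM in WT and 46.3 and 48.4 CPM in KO1, with interleaved libraries (log2 0.03, SE 0.09, adjusted p = 0.881). SOX2 measured 105 and 118 CPM in WT and 69.1 and 86.6 CPM in KO1. Both KO1 libraries were below both WT libraries (log2 -0.52, SE 0.15, adjusted p = 0.0216), and the call was lost without WT day 4 replicate 1 or 2 or KO1 day 4 replicate 1 (adjusted p up to 0.23). ZFP42, the stem cell factor REX1, measured 158 and 194 CPM in WT and 300.2 and 299 CPM in KO1, with KO1 the higher pair (log2 0.77, SE 0.13, adjusted p = 0.000681). GAL, a neuropeptide gene high in stem cells, rose by 1.06, and PODXL, which carries stem cell surface antigens, fell by 0.71 on the log2 scale. Of 32 genes, 4 rose (12.5%), 6 fell (18.8%) and 22 did not pass (median -0.18). Of all features 10.5% were higher and 9.42% lower. The 6 were 10 without either KO1 day 0 library and 3 without WT day 4 replicate 2 or KO1 day 4 replicate 1.

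Genes induced in the DNA damage response were mostly lower in KO1. At day 4, 15 of 20 fell, 1 rose and 4 did not pass (median -0.63). CDKN1A, the cell cycle inhibitor p21, measured 43.3 and 63.7 CPM in WT and 27.6 and 29.2 CPM in KO1. The WT libraries differed from each other but both were above KO1 (log2 -0.91, SE 0.16, adjusted p = 0.0013). FDXR, ferredoxin reductase, measured 30.4 and 38.3 CPM in WT and 12.1 and 12.6 CPM in KO1, without overlap (log2 -1.48, SE 0.14, adjusted p = 4.16e-06). FAS, the death receptor, measured 3.97 and 5.22 CPM in WT and 1.04 and 1.44 CPM in KO1, also without overlap (log2 -1.87, SE 0.29, adjusted p = 0.000364). PHLDA3 fell by 1.18, ZMAT3 by 1.08, DDB2, a DNA damage sensor, by 1.04, and BAX, which opens mitochondria in apoptosis, by 0.69 on the log2 scale.

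MDM2, BBC3 and RRM2B fell but not in every alternative, and PLK2, which rose (log2 0.62, adjusted p = 0.0125), lost its call without WT day 4 replicate 1, without either KO1 day 4 library and with DESeq2. At day 0, 6 of the 20, PLK2 among them, were lower in KO1 (median -0.46). CDKN1A then measured 28.9 and 27.5 CPM in WT and 12.03 and 10.1 CPM in KO1 (log2 -1.35, SE 0.18, adjusted p = 0.0024). PHLDA3 measured 30.1 and 29.2 CPM in WT and 17.2 and 12.4 CPM in KO1 at day 0 (log2 -1.01, SE 0.13, adjusted p = 0.00232). Both KO1 values were below both WT values in each gene, and both calls were lost without either WT day 0 library, with adjusted p-values up to 0.0595. The 6 became 0 without WT day 0 replicate 1, and of the KO1 day 0 libraries the omission of the first gave 14 and of the second 6. In KO2 at day 4, CDKN1A stood at 13.9 and 11.7 CPM, below both KO1 libraries (log2 1.16, SE 0.18, adjusted p = 0.000279), and PHLDA3 at 25.2 and 23.5 CPM, which did not differ past the threshold (log2 -0.16, adjusted p = 0.417).

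Metallothioneins, small cysteine-rich proteins that bind zinc and copper, were far lower in KO1. This group was picked after its values had been seen, so its count supports nothing. Of 12 tested members, 10 fell, none rose and 2 did not pass (median -2.93). The summed level of all 14 listed was 62.8 to 68.4 CPM in WT and 12.3 to 13.96 CPM in KO1. MT2A measured 14.6 and 12.1 CPM in WT and 3.28 and 2.34 CPM in KO1. Both KO1 libraries were far below WT (log2 -2.26, SE 0.19, adjusted p = 1.53e-06). MT1G measured 11.98 and 11.3 CPM in WT and 1.12 and 1.31 CPM in KO1, also without overlap (log2 -3.24, SE 0.22, adjusted p = 1.33e-07). MT1H measured 10.4 and 10.4 CPM in WT and 0.432 and 1.03 CPM in KO1, again without overlap (log2 -3.75, SE 0.29, adjusted p = 5.14e-07).

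Of the rest, MT1E (-3.02), MT1F (-1.95), MT1A (-2.62), MT1L (-3.74), MT1P2 (-3.71) and MT1DP (-3.08), pseudogenes among them, fell on the log2 scale. MT1M had 3 counts in KO1 and 25 in WT, and its call was lost without WT day 4 replicate 2 or KO1 day 4 replicate 1 (adjusted p up to 0.0593). MT1X measured 2.98 and 2.32 CPM in WT and 3.02 and 4.20 CPM in KO1 and did not pass, its KO1 libraries being the higher pair (log2 0.47, SE 0.22, adjusted p = 0.16). These genes are near copies of each other, so how reads were divided among them is uncertain. MTF1, the zinc-sensing factor that drives them, differed by 0.10 and SLC30A1, a zinc exporter also driven by it, by 0.31, and neither passed. The promoter of MT2A is shown because metallothioneins are known for repeated metal response elements. Its 250 bases before the start lie at chr16:56608334-56608583 (plus strand, GRCh38.p14), with each match to TGCACNC or TGCGCNC on either strand in capitals.
MT2A: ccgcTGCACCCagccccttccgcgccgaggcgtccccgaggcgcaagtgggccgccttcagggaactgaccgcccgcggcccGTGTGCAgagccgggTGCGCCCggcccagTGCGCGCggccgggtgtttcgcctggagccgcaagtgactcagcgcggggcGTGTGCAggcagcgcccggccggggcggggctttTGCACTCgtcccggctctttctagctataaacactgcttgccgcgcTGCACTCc
MT2A held 7 such matches. MT1H, MT1X and MT2A were the members with a RefSeq entry, and each held 3 or more, against 1.94% of all genes. At day 0, MT2A measured 4.84 and 4.94 CPM in WT and 4.89 and 4.18 CPM in KO1 and MT1G 6.29 and 6.64 and 5.22 and 4.72 CPM, with no call. The day difference passed downward for 9 of the 12, among them MT2A (log2 -2.14, SE 0.28, adjusted p = 0.00026). That test includes the same day 4 libraries, so this count supports nothing either. The 9 were 9 without KO1 day 0 replicate 1, 8 without replicate 2 and 6 with DESeq2. KO2 lay between WT and KO1 for MT1G, at 6.58 and 4.82 CPM (log2 -2.20, SE 0.24, adjusted p = 9.66e-06).

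**Figure D4:**
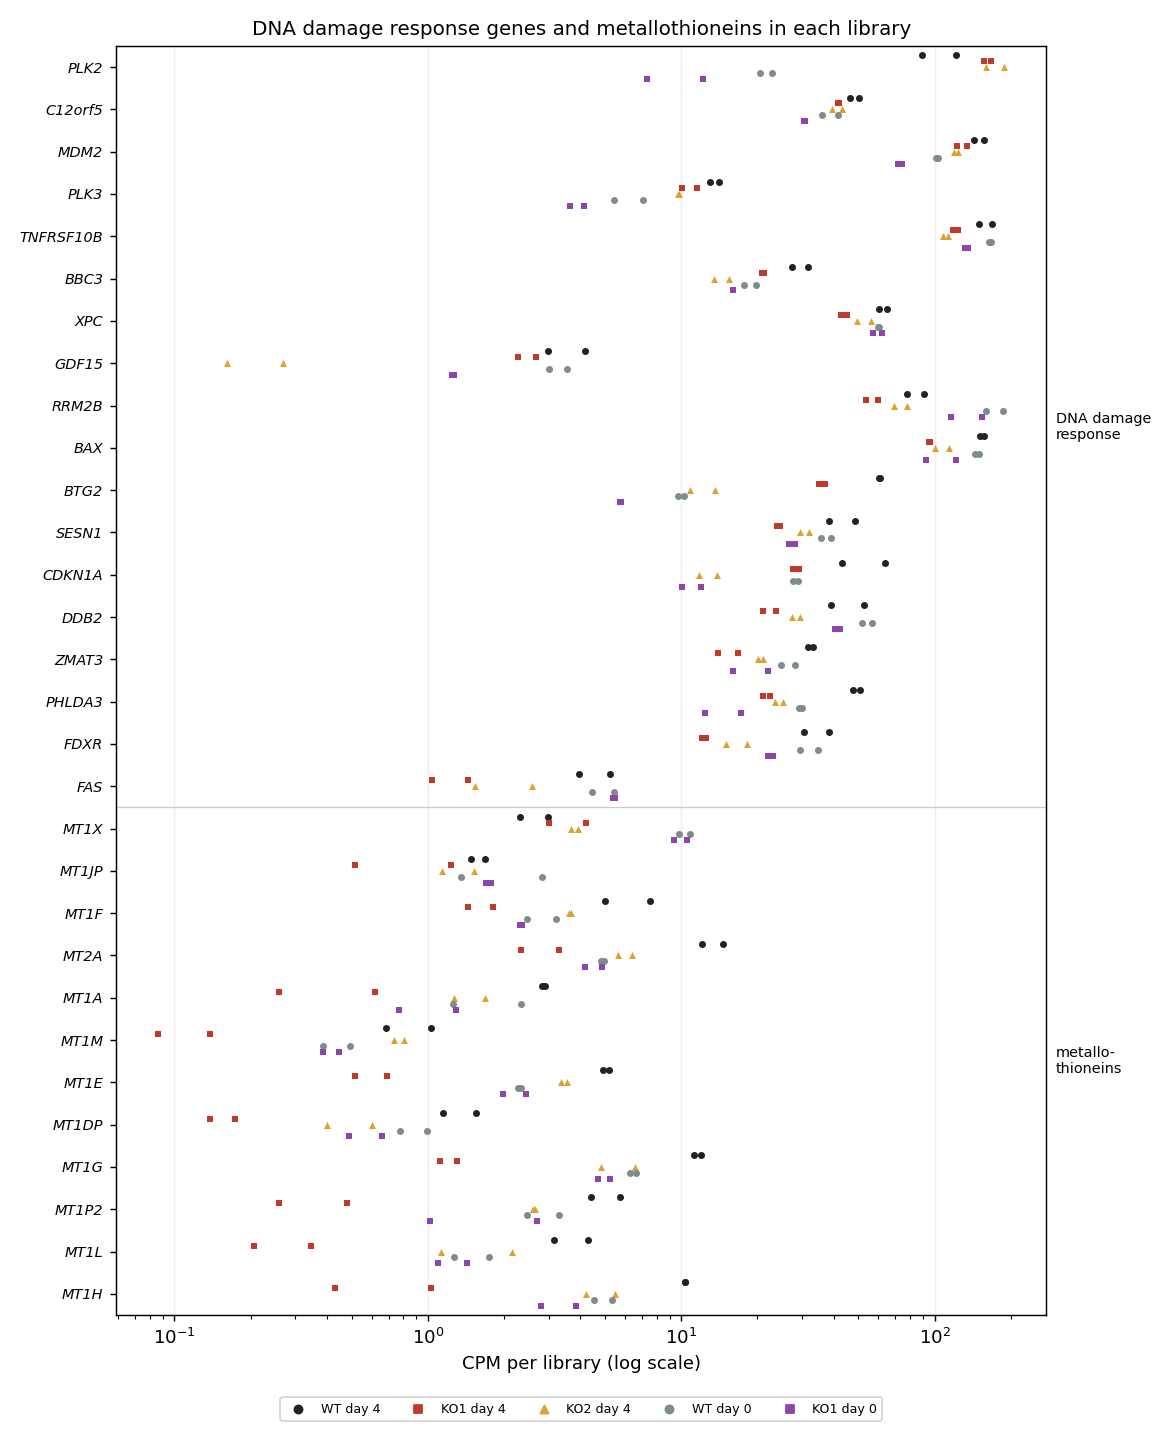
Level of DNA damage response genes and metallothioneins in each library (CPM, log axis), with 1 point a library for WT, KO1 and KO2 at day 4 and WT and KO1 at day 0. At day 4 KO1 lies below WT for FDXR (12.1 and 12.6 against 30.4 and 38.3) and MT1G (1.12 and 1.31 against 11.98 and 11.3), and at day 0 for CDKN1A (12.03 and 10.1 against 28.9 and 27.5).

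Most genes of the ATF4 stress response and of serine synthesis rose. Of 22, 14 rose, none fell and 8 did not pass (median 0.54), and 10 of the 14 kept the call in each alternative. PSAT1, an enzyme of serine synthesis, measured 563 and 583 CPM in WT and 988 and 931 CPM in KO1. Its KO1 pair was the higher (log2 0.74, SE 0.07, adjusted p = 2.06e-06). TRIB3, a pseudokinase induced by ATF4, measured 50.8 and 40.3 CPM in WT and 120.2 and 93.3 CPM in KO1, without overlap (log2 1.23, SE 0.15, adjusted p = 4.49e-05). ASNS, asparagine synthetase, rose by 0.71, SLC7A11, the cystine transporter, by 1.23, MTHFD2, a mitochondrial folate enzyme, by 0.93, and ATF4 itself by 0.41. For TRIB3 the difference from KO2 also passed (log2 1.47, SE 0.15, adjusted p = 4.51e-06), where KO2 stood at 34.3 and 42.2 CPM.

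Transcripts of replication histones, most of which end in a stem-loop and carry no poly(A) tail, were low in these poly(A)-selected libraries and higher in KO1. The sum over 24 such genes was 59.7 to 66.7 CPM in WT and 139 to 146 CPM in KO1. HIST1H2BK, a histone H2B gene, measured 19.1 and 19.7 CPM in WT and 51.9 and 43.2 CPM in KO1. The KO1 pair was the high one (log2 1.29, SE 0.18, adjusted p = 0.000164). HIST1H2AC, a histone H2A gene, measured 4.20 and 4.32 CPM in WT and 13.98 and 13.6 CPM in KO1, without overlap (log2 1.69, SE 0.20, adjusted p = 4.33e-05). Of 20 tested, 13 rose, none fell and 7 did not pass (median 1.30), a count that was 7 with DESeq2, 6 when WT day 4 replicate 1 was left out and 8 when KO1 day 4 replicate 1 was. Histone genes share long identical stretches, so their separate values are uncertain.

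Among cell cycle genes 11 of 32 rose, none fell and 21 did not pass (median 0.15). The D-type cyclins CCND1, CCND2 and CCND3 rose by 0.54, 0.50 and 0.83. CCND3 measured 20.4 and 22.6 CPM in WT and 38.1 and 38.5 CPM in KO1, with KO1 the higher pair (log2 0.83, SE 0.12, adjusted p = 0.000189). CDC25A, a phosphatase that admits cells to S phase, rose by 0.57. The 11 were 5 without WT day 4 replicate 1 and 6 without WT day 4 replicate 2 or either KO1 day 4 library.

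Single genes outside these lists had some of the greatest changes. PKIB, an inhibitor of protein kinase A, measured 9.92 and 12.4 CPM in WT and 104 and 109 CPM in KO1. It had the greatest rise of the genes named by rule (log2 3.25, SE 0.13, adjusted p = 2.25e-09). LIPG, endothelial lipase, measured 19.3 and 16.4 CPM in WT and 115 and 92.4 CPM in KO1, with KO1 far above (log2 2.54, SE 0.14, adjusted p = 1.56e-08). CDHR1, a cadherin first known from photoreceptors, measured 13.8 and 13.8 CPM in WT and 73.2 and 60.1 CPM in KO1, without overlap (log2 2.27, SE 0.12, adjusted p = 1.51e-08). LIX1 (2.87), SIX2 (2.86), a nephron progenitor factor, FABP3 (2.30), a fatty acid binding protein, SMPD3 (2.28), a neutral sphingomyelinase, HS3ST2 (2.18), a heparan sulfate sulfotransferase, and GRP (2.15), gastrin-releasing peptide, rose as well. IGFBP5, an IGF binding protein, measured 2.98 and 8.57 CPM in WT and 37.3 and 31.1 CPM in KO1. Its WT libraries differed from each other (log2 2.53, SE 0.31, adjusted p = 5.01e-05), and the log2 fold change was 3.50 without WT day 4 replicate 2 and 1.98 without replicate 1. BST2, the antiviral protein tetherin, measured 9.61 and 9.47 CPM in WT and 1.55 and 1.86 CPM in KO1, lower in KO1 (log2 -2.47, SE 0.23, adjusted p = 3.49e-06). C5, complement component 5, measured 7.48 and 5.22 CPM in WT and 1.12 and 1.17 CPM in KO1, also lower (log2 -2.45, SE 0.39, adjusted p = 0.000506).

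A few genes were already apart at day 0. Of the day 4 calls, 5 higher genes were also called higher at day 0, of 1755 and of 10, and 19 lower genes were also called lower, of 1582 and of 30. The genes CAV1, caveolin, and PLK2, a kinase of the DNA damage list, were called higher at day 4 and lower at day 0, and are named after their values were seen. At day 0 CAV1 measured 12.6 and 11.9 CPM in WT and 7.36 and 7.61 CPM in KO1 (log2 -0.71, adjusted p = 0.0321), and at day 4 it measured 136 and 159 CPM in WT and 221 and 194 CPM in KO1 (log2 0.49, adjusted p = 0.0012). PLK2 measured 20.4 and 22.7 CPM in WT and 12.2 and 7.34 CPM in KO1 at day 0 (log2 -1.16, adjusted p = 0.0257). The day 0 call was lost in 7 of 17 alternatives for CAV1 (adjusted p up to 0.34) and in 3 for PLK2 (up to 0.412). The counts of such overlaps changed with the KO1 day 0 libraries used. Without KO1 day 0 replicate 1, 453 genes were higher on both days, 283 lower on both, 363 higher at day 4 and lower at day 0, and 358 the reverse. Without replicate 2 these were 7, 24, 0 and 0. The genes described next were low in both KO1 libraries on both days. LRRC61 measured 5.80 and 7.99 CPM in WT and 0.0863 and 0.138 CPM in KO1 at day 4. At day 0 it measured 12.98 and 9.47 CPM in WT and 0.220 and 0.222 CPM in KO1 (log2 -5.60, SE 0.36, adjusted p = 7.14e-07). Its day 4 counts were 3 in KO1 and 200 in WT, which at equal depth is 60.8 times as many in WT (95% counting interval 20.5 to 298). C7orf29, which overlaps LRRC61 so that reads may be shared, measured 6.03 and 4.70 CPM in WT and 0.345 and 0.206 CPM in KO1 (log2 -4.27, SE 0.35, adjusted p = 8.24e-07). It was as low in KO1 at day 0, at 0.439 and 0.578 CPM against 6.39 and 5.79 CPM in WT.

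PCDHB5, a clustered protocadherin, measured 26.5 and 28.4 CPM in WT and 1.47 and 1.93 CPM in KO1 at day 4. At day 0 it measured 18.01 and 20.4 CPM in WT and 2.58 and 2.76 CPM in KO1 (log2 -2.84, SE 0.16, adjusted p = 2.28e-07). MEG3, an imprinted noncoding RNA, measured 1.53 and 1.87 CPM in WT and 0.0863 and 0.206 CPM in KO1 at day 4 and 7.17 and 9.04 CPM in WT and 0.494 and 0.178 CPM in KO1 at day 0 (log2 -4.63, SE 0.40, adjusted p = 2.79e-05). Both days had KO1 far below WT in these genes. KO2 at day 4 was low too, at 0.160 and 0.468 CPM for LRRC61, 0.401 and 0.402 CPM for C7orf29, 1.85 and 2.14 CPM for PCDHB5 and 0.481 and 0.134 CPM for MEG3, and none of these 4 differed past the threshold between KO1 and KO2. PKIB measured 22.95 and 23.2 CPM in WT and 75.1 and 93.8 CPM in KO1 at day 0, already higher (log2 1.87, SE 0.12, adjusted p = 7.14e-07). Its difference was greater at day 4 (log2 1.38, SE 0.18, adjusted p = 0.00026).

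**Figure D5:**
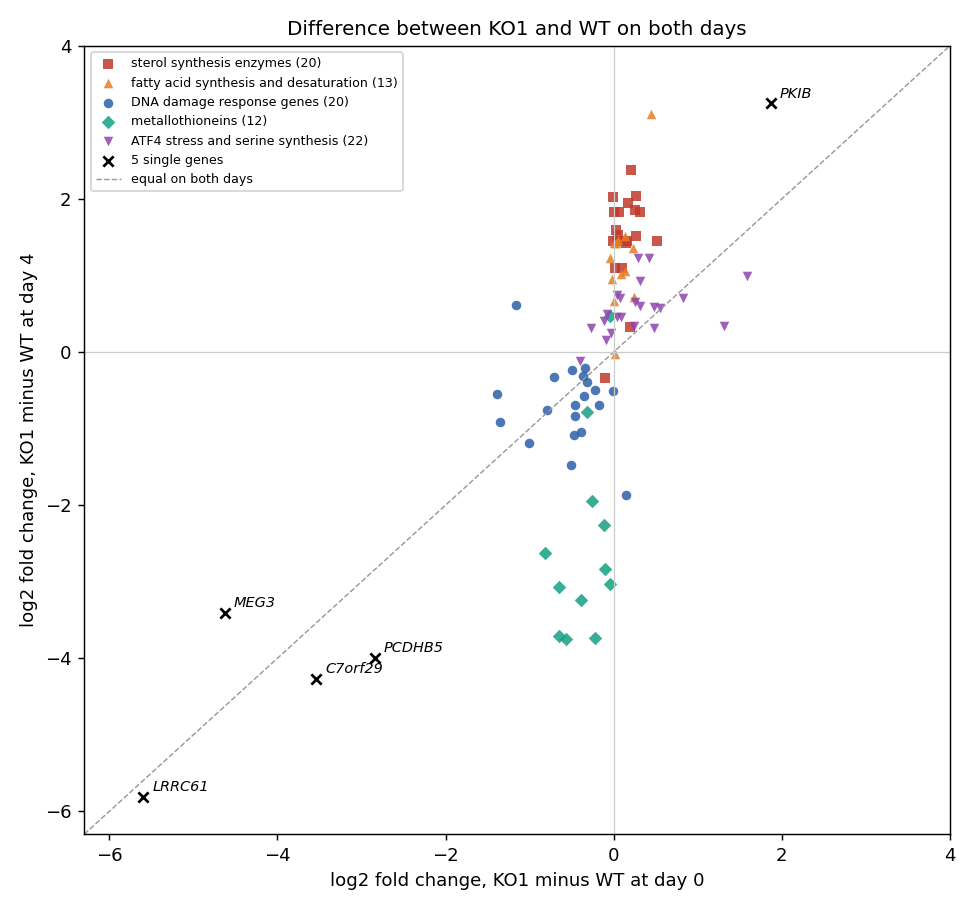
Log2 fold change of KO1 against WT at day 0 (horizontal axis) and at day 4 (vertical axis), with 1 dot a gene for the sterol, fatty acid, DNA damage response, ATF4 and metallothionein lists and for the named genes that differed at day 0, and a dashed line where the values are equal. LRRC61 lies near that line (-5.60 and -5.81), while HMGCS1 lies far above it (0.21 and 2.38) and MT1G far below (-0.39 and -3.24).

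The greatest differences from the second clone were in genes that KO2 had low and KO1 had at or above WT. CD48, a surface protein of blood cells, stood at 2.73 and 2.28 CPM in KO2 at day 4 and measured 16.9 and 22.4 CPM in WT and 49.02 and 53.9 CPM in KO1. Both KO1 libraries were above both other groups (log2 4.37, SE 0.21, adjusted p = 1.3e-08 against KO2). CD177, a neutrophil surface protein gene also found in endoderm, stood at 1.85 and 1.67 CPM in KO2 and measured 11.8 and 10.8 CPM in WT and 31.4 and 23.7 CPM in KO1, the same order (log2 3.96, SE 0.20, adjusted p = 6.74e-09). MYCT1 and ASB5 were higher in KO1 than in KO2 by 3.49 and 3.96. Lower in KO1 than in KO2 were ABCA1 and MT1G, with values given above, and both were also lower in KO1 than in WT. CSH2, a placental lactogen (-2.51), EBF2, a transcription factor (-2.25), and KCNN2, a potassium channel (-2.15), were lower than in KO2 as well. None of CSH2, EBF2 and KCNN2 differed from WT past the threshold. CSH2 did so in 7 of 20 alternatives (adjusted p down to 0.0198) and KCNN2 in 5 (down to 0.0248).

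Markers of other cell types were present. For some lists the share called was near that of all features, which was 10.5% higher and 9.42% lower at day 4. The summed level of 30 neuroectoderm genes was 1918 to 1923 CPM in WT and 2226 to 2229 CPM in KO1. Of the 23 tested, 13% rose and 4.35% fell. MAP2 (log2 2.02), NCAM1 (1.22) and NES (0.43), genes of neurons and their progenitors, rose, and OTX2 fell. Of 11 tested neural crest genes 4 rose (36.4%) and 1 fell (9.09%). The sum over all 14 listed was 273 to 295 CPM in WT and 281 to 286 CPM in KO1. MSX1 alone kept its call, at 0.458 and 0.451 CPM in WT and 3.28 and 2.61 CPM in KO1. The 4 were 2 when WT day 4 replicate 2 was left out and 1 when KO1 day 4 replicate 1 was. The sum over 18 trophoblast and amnion genes was 27.8 to 29.8 CPM in WT and 51.3 to 60.6 CPM in KO1. Of 11 tested, 3 were higher (27.3%).

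The sum over 20 endothelial and blood genes was 242 to 244 CPM in WT and 205 to 210.2 CPM in KO1. Of 15 tested, 1 fell, VWF, and 1 rose, ESAM (6.67% each). The ESAM call was lost without WT day 4 replicate 1 or KO1 day 4 replicate 1 and with DESeq2. Of 12 tested genes of extraembryonic endoderm and liver 4 rose and 4 fell (33.3% each). Those that fell were APOA1, APOA2, APOE and COL4A1, each given above under another list. The sum over all 23 listed was 974 to 996 CPM in WT and 739 to 767 CPM in KO1. COL4A1 and APOE, with the values given above, are part of that sum. AFP measured 2.59 and 5.41 CPM in WT and 12.1 and 10.9 CPM in KO1, a call lost without WT day 4 replicate 1 or either KO1 day 4 library (adjusted p up to 0.162). The 4 that rose were 2 when WT day 4 replicate 2 was left out and 1 when KO1 day 4 replicate 1 was. The part that other cell types had in the differences above was not tested.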

How the data were processed

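RNA was sequenced from 12 libraries of 6 groups (WT, KO1 and KO2 at days 0 and 4, 2 libraries each) with a TruSeq stranded mRNA kit, per the labels' protocols. The deposited values are raw read counts per feature, which the authors made with HTSeq 0.6.1 from reads aligned to hg19 with Bowtie2 2.1.0, per the submitters' processing notes. The sources used here do not give the annotation, strand setting or quality limit. HTSeq's set-aside rows stayed out of totals and tests and held 29.2 to 30.5% (no feature), 19.3 to 22.2% (low quality), 1.17 to 1.41% (ambiguous) and 0.115 to 0.171% (not aligned) of reads. The other 8 samples, chromatin immunoprecipitation of SMAD3 and whole-cell extract controls, were not analysed here.

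Of 54435 features, 28251 had counts and 16792 passed edgeR's filterByExpr. edgeR 4.0.16 fitted TMM-scaled counts (factors 0.937 to 1.05) by quasi-likelihood with 1 mean per group over all 12 libraries (6 residual degrees of freedom), in R 4.3.3. p-values were adjusted by Benjamini-Hochberg over all tested features, and called below 0.05. An SE, or standard error, is the log2 fold change over the root of F. Levels are TMM-scaled CPM, for which 3 counts were worth 0.133 to 0.294 CPM. Such values and intervals cover counting error only. On simulated counts at this depth and replication, 87% of 2-fold and 99% of 4-fold changes were called, with 4.62% of calls false. The simulation changed 200 features, all with a mean of at least 1 CPM in WT at day 4, and drew replicates independently. These rates need not hold for lower features or where a library differs as a whole. Alternatives were other scalings, no low-count filter, DESeq2 1.42.0, fewer libraries, each library left out and the replicate number as a block.

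The members and the 29 gene lists were chosen with earlier results of these data known, and a further list, the metallothioneins, was added after its values were seen. Genes were named by rule: the 15 greatest called changes each way (at least 1 on the log2 scale, a mean of at least 5 CPM in the higher group, no overlap), the 5 greatest each way for the day difference and for KO1 against KO2, up to 3 called members per list each way, 20 lineage and marker genes whatever their values, and further members where a list is described by its count. MTF1 and SLC30A1 fall outside this rule and were chosen after their values were seen. For genes named as the greatest changes, a lack of overlap between libraries was a condition of naming and adds nothing. Promoters come from RefSeq (GRCh38.p14). Symbols are those of the deposited files. Some genes that the rule names are not reported here.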

Additional observations from a re-analysis of the deposited data

Results flagged for a closer look

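Genes among the 20 lineage and marker genes are given here because a test found that the KO1 effect differed between day 4 and day 0, or that KO1 differed from the second clone at day 4. For the days, the KO1 effect at day 4 minus that at day 0 was 2.17 for HMGCS1, 2.57 for INSIG1, 1.88 for COL3A1 and 1.06 for NODAL on the log2 scale. It was -2.70 for GSC, -2.46 for LEFTY2, -2.14 for HHEX, -1.87 for LEFTY1, -1.27 for CXCR4 and -0.87 for SOX2. HMGCS1, INSIG1 and LEFTY2 passed in each of 17 alternatives. COL3A1 measured 5.33 and 2.90 CPM in WT and 4.78 and 4.40 CPM in KO1 at day 0, and LEFTY1 2.23 and 2.47 CPM in WT and 1.37 and 4.85 CPM in KO1. The calls of COL3A1 and NODAL were lost when WT day 0 replicate 1 was left out (adjusted p = 0.0719 and 0.111). That of SOX2 was lost without WT day 0 replicate 1, WT day 4 replicate 2 or KO1 day 4 replicate 1 (up to 0.0906). HHEX lost it without either WT day 0 library, KO1 day 0 replicate 2 or KO1 day 4 replicate 1 (up to 0.109), and CXCR4 without those, WT day 4 replicate 1 or KO1 day 4 replicate 2 (up to 0.148). LEFTY1 lost it with DESeq2 and without either WT day 0 library, KO1 day 0 replicate 2, WT day 4 replicate 2 or KO1 day 4 replicate 1 (up to 0.394), and GSC in 9 alternatives (up to 0.423).

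At day 0, GSC measured 0.0968 and 0.283 CPM in WT and 0.330 and 1.56 CPM in KO1, HHEX 0.581 and 0.706 CPM in WT and 1.04 and 3.03 CPM in KO1, and CXCR4 1.65 and 1.62 and 1.26 and 1.60 CPM. SOX2, a factor of stem cells and neural progenitors, measured 199.6 and 232 CPM in WT and 226 and 324 CPM in KO1. In GSC, HHEX and SOX2 the second KO1 day 0 library was the highest of the 4, and both WT libraries were at or near the floor of 3 counts for GSC. That library was also the highest in LEFTY1, LEFTY2, HMGCS1 and INSIG1, with values given above. The day difference without KO1 day 0 replicate 1 and 2 was -2.46 and -0.64 for LEFTY1 and -2.96 and -1.56 for LEFTY2.

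For the clones, KO1 minus KO2 at day 4 was 2.84 for INSIG1, 2.71 for CXCR4, 2.69 for SOX17, 2.66 for GATA6, 2.66 for COL3A1, 2.45 for GATA4, 2.37 for CER1, 2.31 for MIXL1, 2.28 for HHEX, 2.27 for FOXA2, 2.12 for GSC, 1.88 for HMGCS1 and 1.45 for EOMES on the log2 scale. It was -1.10 for SOX2, -0.46 for POU5F1 and -0.38 for NANOG, stem cell factors that were higher in KO2. Each of these calls held in 20 alternatives, except that NANOG lost its own without KO1 day 4 replicate 1 or KO2 day 4 replicate 2 (adjusted p up to 0.0807). Each line is 1 clone, so a difference in the edit and a difference between clones cannot be told apart.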

How the results depend on the processing

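Of 277 named genes called between KO1 and WT at day 4, 184 kept direction and call in each alternative run for them (up to 20) and 93 lost the call in at least 1. KO1 minus WT changed sign for 2 genes, neither called: NANOG was -0.0263 without WT day 4 replicate 2 and -0.00794 without KO1 day 4 replicate 2 (range over left-out libraries -0.0263 to 0.0594), and POU5F1 was -0.00104 without WT day 4 replicate 1 (up to 0.0535). The day 4 counts, 1755 higher and 1582 lower, were 2790 and 2620 in the 6 day 4 libraries, 2676 and 2562 without both KO1 day 0 libraries, and 2556 lower in the 4 libraries compared. Leaving out single libraries gave 758 to 2675 higher and 595 to 2557 lower. DESeq2 called 1347 and 1217, RLE size factors 1689 and 1617, and upper-quartile factors 1529 and 1756. The day difference ranged from 328 to 2359 upward and from 279 to 2154 downward over left-out libraries. Against KO2, 1423 to 3272 were higher and 723 to 2848 lower, and the lower count was 2953 in the 6 day 4 libraries, 3240 in the 4 compared and 2837 without both KO1 day 0 libraries. At day 0 the counts were 1 to 1939 higher and 8 to 1848 lower over left-out libraries, 233 and 150 without the low-count filter, and 21 higher with DESeq2. The causes of these shifts were not tested.

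With the replicate number as a block, 1920 features were higher and 1742 lower at day 4, and 16 were higher at day 0. The deviations of same-numbered libraries were at most weakly correlated over all features (-0.04 to 0.155 over pairs of groups, 0.04 for WT and KO1 at day 4). Counting noise weakens such correlations, so they cannot settle whether the numbers pair libraries. The block is given only here. The counts of list members in the other comparisons and of day 4 calls shared with day 0 were recomputed under each alternative, a step chosen after seeing the data. At 3 counts a library, levels below 0.133 to 0.294 CPM could not be told from 0.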

Other observations

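WNT signalling, which patterns the streak together with Nodal, changed in both directions. Of 42 WNT ligands, receptors, antagonists and targets, 10 rose, 9 fell and 23 did not pass (median 0.06), and 4 and 6 of these kept the call in each alternative. DACT1, an intracellular modulator of WNT signalling, measured 65.3 and 75.1 CPM in WT and 165 and 170.4 CPM in KO1, higher in both KO1 libraries (log2 1.25, SE 0.09, adjusted p = 2e-07). DKK4, a secreted WNT antagonist, measured 58.7 and 40.8 CPM in WT and 118 and 142 CPM in KO1 (log2 1.39, SE 0.18, adjusted p = 6.21e-05). WNT5A, a ligand of the noncanonical branch, rose by 1.37 and LEF1, a nuclear effector, by 1.80 from 1.07 and 1.29 CPM in WT. SFRP1, which binds and blocks WNT ligands, measured 651 and 584 CPM in WT and 217 and 253 CPM in KO1, with the KO1 pair far lower (log2 -1.39, SE 0.09, adjusted p = 5.46e-08). FZD5, a WNT receptor, measured 356 and 372 CPM in WT and 157 and 165 CPM in KO1, also without overlap (log2 -1.18, SE 0.07, adjusted p = 3.53e-08). LGR5 (log2 -1.87), the R-spondin receptor, FRZB (-1.77), FZD8 (-0.79) and FZD4 (-0.71) fell too. The count that rose was 4 when WT day 4 replicate 2 was left out and 5 when KO1 day 4 replicate 1 was.

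Of 23 BMP genes, 2 rose (8.7%), 5 fell (21.7%) and 16 did not pass (median 0.06), against 10.5% of all features called higher and 9.42% called lower. ID1, a direct BMP target, measured 135 and 156 CPM in WT and 75.4 and 86.6 CPM in KO1, lower in both KO1 libraries (log2 -0.84, SE 0.11, adjusted p = 7.46e-05), and ID3 fell too (log2 -0.60). CHRD, the antagonist chordin, measured 12.1 and 10.1 CPM in WT and 2.42 and 3.85 CPM in KO1, without overlap (log2 -1.79, SE 0.28, adjusted p = 0.000475), while GREM1, the antagonist gremlin, measured 27.2 and 26.4 CPM in WT and 85.7 and 75.3 CPM in KO1 and was the higher in KO1 (log2 1.58, SE 0.14, adjusted p = 1.97e-06). BMP7 fell too (log2 -1.24). The 5 that fell were 8 without either KO1 day 0 library, and the 2 that rose were 1 with DESeq2. Of 27 FGF genes 4 rose (14.8%), 5 fell (18.5%) and 18 did not pass, and 2 and 2 kept the call in each alternative. FGF19 measured 5.11 and 6.12 CPM in WT and 19.8 and 20.2 CPM in KO1 (log2 1.82, SE 0.14, adjusted p = 3.42e-07) and rose with FGF4, while the receptors FGFR1 (log2 -0.50) and FGFR3 (-0.48) fell. The 4 that rose were 2 without WT day 4 replicate 2 or either KO1 day 4 library and 8 without either KO1 day 0 library, and the 5 that fell were 2 without WT day 4 replicate 1 and 3 without either KO1 day 4 library.

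In glycolysis and the hypoxia response 9 of 26 genes rose, 3 fell and 14 did not pass (median 0.19), with 4 and 1 keeping the call in each alternative. HK2, a hexokinase, measured 99.5 and 95.1 CPM in WT and 154.4 and 147.9 CPM in KO1 (log2 0.64, SE 0.09, adjusted p = 0.000165). ALDOC, an aldolase, SLC2A1, the glucose transporter GLUT1, and LDHA, lactate dehydrogenase, rose by 0.64, 0.54 and 0.39, and PFKL, the liver-type phosphofructokinase, measured 165 and 159 CPM in WT and 113 and 113 CPM in KO1, lower in KO1 (log2 -0.52, SE 0.10, adjusted p = 0.00144). When KO1 day 4 replicate 1 was left out, 4 rose and 1 fell, and without either KO1 day 0 library 6 fell.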
